A study of Mus musculus with 48 samples.

Results

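Mice whose Lgr5 cells carry an activated form of the receptor Notch2 were set against mice with the disease model alone. The model, pL2, makes interleukin-1 beta from a transgene in squamous epithelium of oesophagus and forestomach, and models Barrett oesophagus, in which columnar lining takes the place of the squamous one. Lgr5 marks stem cells of gastric and intestinal glands. The study asked how changes of Notch signalling in Lgr5-positive stem cells and in Dclk1-positive tuft cells act on the course of this disease. Whole tissue of the squamocolumnar junction and cardia, where oesophagus meets stomach, was measured on Affymetrix arrays, 1 array per sample, in 48 samples that form 16 groups of 3. The groups compared here have 6 arrays. Of these, 3 have the genotype pL2_Lgr5_Notch2IC_LacZ (called Lgr5_Notch2IC below) and 3 the genotype pl2 from the MRI facility on chow (called pL2). The series also holds pl2 arrays from the Freising facility, on chow or high fat diet, which are outside this comparison.

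Both groups carried the pL2 transgene, came from the same facility and ate chow. The Lgr5_Notch2IC mice were 10, 11 and 10 months old in arrays 1, 2 and 3, and had received tamoxifen at 4 months. The pL2 mice were 12 months old, with no tamoxifen entry, and the sample titles of the 2 groups belong to different series. Each pL2 title also ends in a suffix (_2) that no Lgr5_Notch2IC title carries, and the labels do not say what it stands for. Age, tamoxifen, title series and title suffix can therefore not be told apart from the genotype. The other Notch lines used below carried pL2 with Lgr5 or Dclk and floxed Notch1 or floxed Notch2 (Lgr5_Notch1fl, Lgr5_Notch2fl, Dclk_Notch1fl, Dclk_Notch2fl), or Dclk with activated Notch2 (Dclk_Notch2IC). All had received tamoxifen, at 3 to 6 months, and were 9 to 13 months old. The labels name Lgr5 and Dclk without describing the alleles, do not say where in the genome Notch2IC was placed, and do not state that each array came from a separate mouse. Replicate numbers only name arrays. The p-values rest on 1 spread shared by all 16 groups of the series, not on that of the compared arrays alone. This spread may in part be technical. Beside pL2 and the Notch lines, the 16 groups held the genotypes WT (wild type), FXR, pl2_FXR and pl2_IL8. They also held pl2 and WT mice from the Freising facility, on chow or high fat diet. The mice of these further groups were 9 or 12 months old.

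The tissue carried the transcripts of the labelled region in both groups. The mean log2 signal of 25 squamous suprabasal genes was 10.02, 8.28 and 10.40 in the Lgr5_Notch2IC arrays, against 9.84, 9.90 and 9.73 in the pL2 arrays, so Lgr5_Notch2IC array 2 stood lower than the other 5. The mean of 11 gastric pit genes was between 9.81 and 11.57 in all 6 arrays. Arrays of each group also held transcripts of neighbouring organs. Lgr5_Notch2IC array 3 was high in intestinal enterocyte genes, with a list mean of 10.30, against 5.92 and 6.11 in the other 2 Lgr5_Notch2IC arrays and 5.78, 6.12 and 6.43 in the pL2 arrays. Hepatocyte genes were at 4.23, 4.33 and 3.92 in the Lgr5_Notch2IC arrays, against 6.34, 5.32 and 8.15 in the pL2 arrays, so the list means of the 2 groups did not overlap. Alb, the plasma protein made by liver, was at 5.08, 5.94 and 4.63 in the Lgr5_Notch2IC arrays, against 10.96, 8.24 and 11.65 in the pL2 arrays. Xist, transcribed from the inactive X chromosome of females, was at 11.67, 11.56 and 5.22 in the Lgr5_Notch2IC arrays, against 12.17, 4.92 and 3.83 in the pL2 arrays, so both groups mixed arrays with high and low values. Pairwise correlations of the arrays were 0.9515, 0.9028 and 0.8752 within Lgr5_Notch2IC, against 0.9638, 0.946 and 0.9763 within pL2. The median over all groups of the series was 0.964, so the Lgr5_Notch2IC arrays were less alike than most. Lists below are therefore also given without Lgr5_Notch2IC array 3, or without the 10 arrays of the series whose hepatocyte or enterocyte list mean was above a limit of 8, which takes out Lgr5_Notch2IC array 3 and pL2 array 3. The latter fit does not remove the hepatocyte difference. Of 12 hepatocyte genes, 8 were lower there at an unadjusted p below 0.05 (limma), with a median difference of -1.48. With all arrays 5 were lower, with a median of -2.46.

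Notch receptors are cut when a ligand of the Delta or Jagged family on a neighbouring cell binds them. The freed intracellular domain, the part that an IC allele supplies without a ligand, enters the nucleus, joins the DNA-binding protein RBPJ and switches on genes such as the HES and HEY repressors. In the intestine this signal keeps stem cells dividing and steers their daughters away from the secretory fates.

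Promoters are shown for 2 of the genes described below. Hey2 is a member of the Notch target list that was not called, and Alox12e is a called gene whose signal is low without activated Notch2. For Hey1, the called member of that list, no promoter was at hand. Both are the 250 bases before the RefSeq start, 5′ to 3′ on the gene's own strand, from RefSeq on GRCm38.p6: chr10:30842784-30843033 (minus strand) for Hey2 and chr11:70322531-70322780 (minus strand) for Alox12e. Capitals mark the RBPJ core motif TGGGAA, searched on both strands (TTCCCA on the other).
Hey2: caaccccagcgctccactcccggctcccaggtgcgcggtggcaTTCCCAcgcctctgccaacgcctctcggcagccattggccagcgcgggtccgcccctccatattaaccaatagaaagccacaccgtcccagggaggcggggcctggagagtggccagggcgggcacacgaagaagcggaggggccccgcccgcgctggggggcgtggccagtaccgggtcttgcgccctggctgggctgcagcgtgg
Alox12e: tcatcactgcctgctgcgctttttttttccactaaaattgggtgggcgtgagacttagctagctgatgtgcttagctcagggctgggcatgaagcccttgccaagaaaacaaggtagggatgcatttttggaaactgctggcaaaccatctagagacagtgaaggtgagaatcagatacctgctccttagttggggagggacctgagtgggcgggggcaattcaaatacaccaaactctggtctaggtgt
The Hey2 window held 1 match, which begins 207 bases before the start, and the Alox12e window held none. Of 32851 promoters of the same length, 7094 (21.6%) hold the motif, so a match in 1 window is common. These letters are a description of the windows and not evidence of binding. The table of promoters held 14 of the 21 genes called below and 9 of the 16 genes of the Notch target list.

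Activated Notch2 in Lgr5 cells went with a small set of changed genes. Of 15242 genes tested, 21 (0.138%) passed an adjusted p of 0.05 and are called changed here, 9 higher and 12 lower in Lgr5_Notch2IC than in pL2 (limma's moderated test over all 48 arrays, Benjamini-Hochberg adjustment). The median difference of all genes was -0.020. All differences are on the log2 scale as Lgr5_Notch2IC minus pL2, with standard errors, and the signals are log2 values whose level cannot be compared between probe sets. At an unadjusted p below 0.05, 691 genes (4.53%) were higher and 1201 (7.88%) lower, and the counts of list members below are read against these 2 shares. The share of all tested genes whose groups do not overlap was not counted. Statements on overlap therefore describe the arrays and carry no weight as a test. The number of called genes varied with the arrays in the fit, between 0 without pL2 array 2 and 487 without Lgr5_Notch2IC array 2. Of those 487, 78 were higher and 409 lower. It was 17 without Lgr5_Notch2IC array 3, with 13 higher and 4 lower. When the 6 arrays were fitted alone it was 0 (758 at an unadjusted p below 0.05). It was 11 without the 10 arrays above the hepatocyte or enterocyte limit, with 8 higher and 3 lower. The balance of increases and decreases, and the decreases described below, thus depended on the arrays in the fit. With the title suffix as a covariate it was 3, all of them lower. Hey1 and Alox12e were not called in that fit (limma, adjusted p = 0.247 and 0.103). In none of the 20 alternative fits did any of the 21 genes change direction. In a whole-tissue sample, fewer cells of a type and less RNA per cell cannot be told apart.

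Notch2 itself was at 9.44, 8.60 and 9.09 in the Lgr5_Notch2IC arrays, against 8.98, 8.66 and 8.76 in the pL2 arrays. The groups overlapped, and the difference of 0.25 ± 0.22 (95% interval -0.20 to 0.69, adjusted p = 0.699) did not pass the test. Where on the Notch2 transcript the probes lie, and whether they read the activated form, is not known here, and lacZ was not measured, so this does not check the labels. Notch1 and Notch3, its relatives, differed by 0.23 ± 0.22 (adjusted p = 0.73) and 0.51 ± 0.37 (adjusted p = 0.614), with overlapping groups. The vascular receptor Notch4 was at 6.42, 6.51 and 6.21 in the Lgr5_Notch2IC arrays, against 6.53, 7.35 and 7.23 in the pL2 arrays, groups that did not overlap, with a difference of -0.66 ± 0.22 (adjusted p = 0.199). Among ligands, Dll1 was at 5.84, 6.13 and 6.14 in the Lgr5_Notch2IC arrays, against 5.37, 5.54 and 5.54 in the pL2 arrays (0.55 ± 0.27, adjusted p = 0.398). Jag1, Jag2 and Dll4 differed by 0.20, 0.29 and 0.18. Of the 9 receptors and ligands, 8 passed the filter on low signals and none was called, with 1 higher and 1 lower at an unadjusted p below 0.05 and a median difference of 0.24 (0.20 without Lgr5_Notch2IC array 3). Dll3 stayed below the filter.

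Of the genes that cut, modify and transmit the signal, 24 were tested and none was called, with a median difference of 0.03 (1 higher and 2 lower at an unadjusted p below 0.05). Without Lgr5_Notch2IC array 3, 2 were higher and 0 lower, and without the arrays above the hepatocyte or enterocyte limit 6 and 0, with medians of 0.04 and 0.13. Rbpj, the DNA-binding partner of the Notch intracellular domain, differed by 0.05 ± 0.18 (adjusted p = 0.947). Fbxw7, the ubiquitin ligase subunit that marks Notch intracellular domains for breakdown, was at 5.75, 5.68 and 5.22 in the Lgr5_Notch2IC arrays, against 6.01, 6.00 and 5.95 in the pL2 arrays. Its groups did not overlap, and the difference of -0.44 ± 0.14 had an adjusted p of 0.176. Spen, a co-repressor that binds RBPJ, differed by 0.25 ± 0.12, and Psen2, a catalytic subunit of gamma-secretase, by -0.40 ± 0.20. The other 21 genes had unadjusted p values above 0.05, with differences between -0.35 in Numbl, an adaptor that opposes Notch, and 0.35 in Maml2, a coactivator of the RBPJ complex.

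Of 16 Notch target genes, 1 was called and 12 had a difference above 0. Hey1, the HEY-family repressor, was at 6.39, 6.68 and 5.73 in the Lgr5_Notch2IC arrays, against 4.82, 4.29 and 4.86 in the pL2 arrays. Every Lgr5_Notch2IC array was above every pL2 array, and Hey1 rose 3.05-fold (1.61 ± 0.33, adjusted p = 0.0317). Each pL2 value lay below the median of the series arrays without activated Notch2, given below, so the fold is taken from a low reference. Against the floxed Lgr5 lines its difference was smaller and did not pass the test. It remained called in 11 of 20 alternative fits, and its difference ranged from 1.26 to 1.98 over them. Nrarp, a feedback inhibitor of Notch, was at 9.26, 8.17 and 8.70 in the Lgr5_Notch2IC arrays, against 7.20, 7.72 and 7.55 in the pL2 arrays (1.22 ± 0.37, adjusted p = 0.167). Dtx1, a Deltex ubiquitin ligase, was at 5.89, 5.97 and 5.84 in the Lgr5_Notch2IC arrays, against 5.44, 4.53 and 4.79 in the pL2 arrays (0.98 ± 0.33, adjusted p = 0.202). Neither gene overlapped between the groups, and neither was called.

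The second HEY gene, Hey2, whose promoter is printed above, was at 4.57, 5.49 and 5.67 in the Lgr5_Notch2IC arrays, against 5.17, 3.97 and 4.43 in the pL2 arrays, and the groups overlapped (0.72 ± 0.33, adjusted p = 0.361). Hes7, the oscillating HES repressor of the segmentation clock, was at 3.65, 4.22 and 4.18 in the Lgr5_Notch2IC arrays, against 3.55, 3.48 and 3.51 in the pL2 arrays (0.50 ± 0.23). The pL2 values and that of Lgr5_Notch2IC array 1 lay below the lowest array median of 4.03, so these signals are near background. Cd44, a surface glycoprotein of stem and progenitor cells, was at 10.39, 9.72 and 9.99 in the Lgr5_Notch2IC arrays, against 9.66, 9.50 and 9.60 in the pL2 arrays (0.45 ± 0.21). Hes7 and Cd44 did not overlap between the groups, and their adjusted p values were 0.348 and 0.39. Hes1, the main HES repressor of the gut, was at 8.28, 8.63 and 7.49 in the Lgr5_Notch2IC arrays, against 7.57, 7.98 and 8.0 in the pL2 arrays. Its array 3 was the lowest of the 6, and the difference of 0.28 ± 0.19 (95% interval -0.10 to 0.66) had an adjusted p of 0.569. Ccnd1, a cyclin of the G1 phase, differed by 0.59 ± 0.24 and the HLH inhibitor Id3 by -0.59 ± 0.24, both with overlapping groups. Of the other 7 target genes, Hes2, Heyl, Sox9 and Myc differed by 0.46, 0.38, 0.17 and 0.14, and Cdkn1a, Hes5 and Hes6 by -0.04, -0.15 and -0.32, all with overlapping groups and unadjusted p values above 0.05. The Hes2 difference came from array 3, at 5.52, against 3.88 and 3.83 in the other 2 Lgr5_Notch2IC arrays.

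At an unadjusted p below 0.05, 7 of the 16 target genes were higher, beside 4.53% of all genes, and 1 was lower, with a median difference of 0.41 beside -0.020 for all genes. Hes7, with signals near background, is counted among the 7. Without Lgr5_Notch2IC array 3 the counts were 5 and 0, with a median of 0.44, and without the arrays above the hepatocyte or enterocyte limit they were the same, with a median of 0.44. Averaged over the 16 genes, the log2 signal was 7.0, 7.10 and 6.98 in the Lgr5_Notch2IC arrays, against 6.58, 6.60 and 6.69 in the pL2 arrays, so the 2 groups did not overlap. Its group means were 7.03 in Lgr5_Notch2IC, 6.89 in Dclk_Notch2IC and between 6.60 and 6.77 in the 4 floxed lines. Which cells of the whole tissue these transcripts came from was not tested. The list of endothelial and pericyte genes described below was also higher in Lgr5_Notch2IC, with a group mean of 6.22 against 5.61 in pL2. It was at 6.42 in Dclk_Notch2IC and between 6.18 and 6.41 in the 4 floxed lines. The part of vessel cells in the Notch target differences was not tested.

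**Figure D1:**
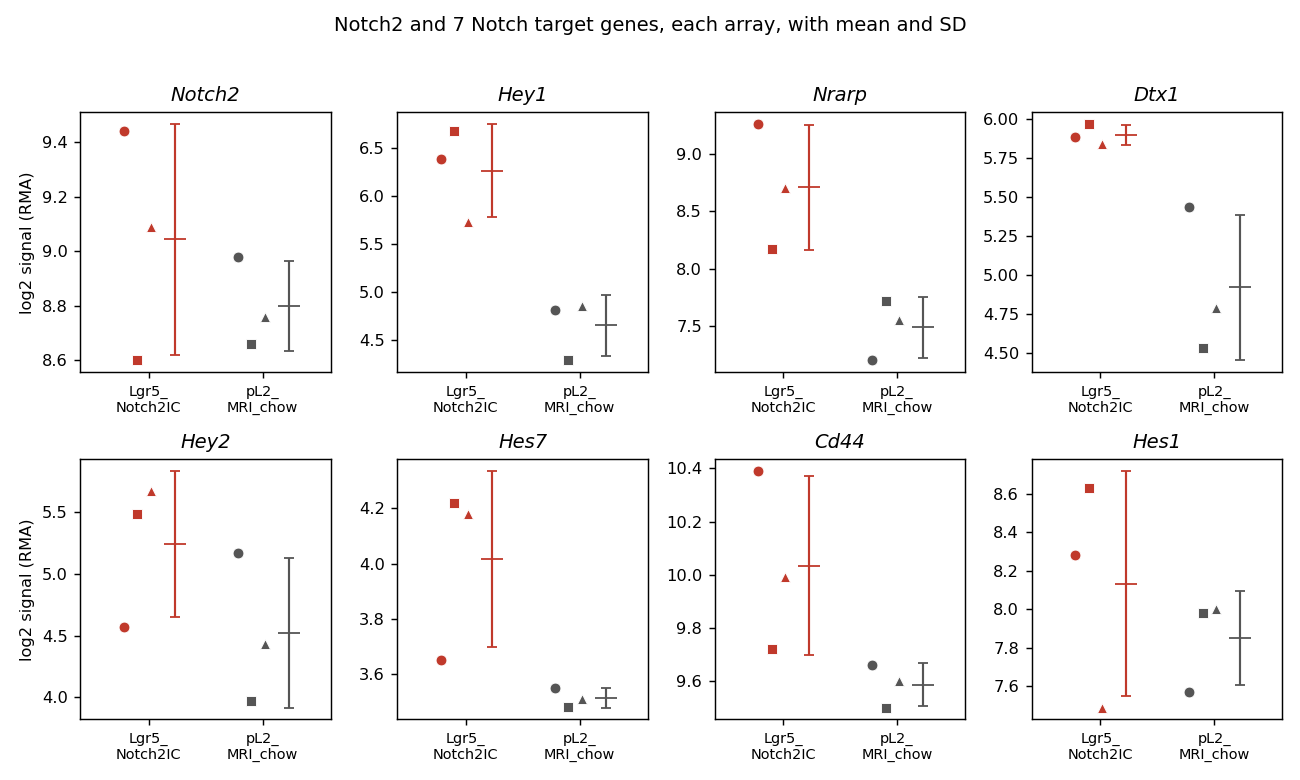
Log2 signal (vertical axis) of Notch2 and 7 Notch target genes in each Lgr5_Notch2IC array (red) and pL2 array (grey), with mean and SD; circles, squares and triangles are arrays 1, 2 and 3. Hey1, Nrarp, Dtx1, Hes7 and Cd44 do not overlap between the groups, while Notch2, Hey2 and Hes1 do, and of these genes only Hey1 passed the test. The share of all genes without overlap was not counted, so this is a description. Hes7 signals are near background.

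Secretory fate genes, which Notch represses in the intestine, gave no call among 8 tested and a median difference of 0.09 (-0.02 without Lgr5_Notch2IC array 3). Atoh1, the factor that starts the secretory programme, was at 3.66, 3.49 and 5.68 in the Lgr5_Notch2IC arrays, against 3.41, 3.63 and 3.63 in the pL2 arrays, and the one high value belonged to the array with high intestinal transcripts. Spdef, a factor of goblet cells, differed by -0.28 ± 0.33. Foxa3, which is active in mucous and endocrine cells, was at 8.16, 8.46 and 7.09 in the Lgr5_Notch2IC arrays, against 8.40, 9.56 and 9.37 in the pL2 arrays (-1.21 ± 0.38, adjusted p = 0.176).

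The other 8 called increases were genes of different roles. Alox12e, a lipoxygenase of the mouse epidermis that oxygenates arachidonic acid, was at 5.22, 6.60 and 4.18 in the Lgr5_Notch2IC arrays, against 2.68, 2.98 and 3.49 in the pL2 arrays. It rose 4.85-fold (2.28 ± 0.41, adjusted p = 0.0148) and remained called in 16 of 20 alternative fits. Its signal was above the array median in 3 of the 6 arrays with activated Notch2 and in 0 of the other 42, so it passed the filter on low signals only through arrays in which it is high, and the pL2 values in its fold are near background. Sv2c, a synaptic vesicle glycoprotein, was at 6.22, 6.64 and 4.82 in the Lgr5_Notch2IC arrays, against 4.20, 3.41 and 4.19 in the pL2 arrays (1.96 ± 0.41, adjusted p = 0.0355). In both genes array 3, high in intestinal transcripts, had the lowest of the 3 Lgr5_Notch2IC values and was still above every pL2 array.

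Rab15, a small GTPase of early and recycling endosomes, was at 7.77, 8.21 and 8.21 in the Lgr5_Notch2IC arrays, against 7.07, 7.0 and 7.17 in the pL2 arrays (0.98 ± 0.18, adjusted p = 0.0154). Podxl, a sialomucin of vessel linings and podocytes, was at 5.97, 6.46 and 6.09 in the Lgr5_Notch2IC arrays, against 5.48, 3.74 and 4.98 in the pL2 arrays (1.44 ± 0.30, adjusted p = 0.0355). Cdh13, a cadherin held in the membrane by a lipid anchor, was at 7.24, 7.34 and 6.47 in the Lgr5_Notch2IC arrays, against 6.25, 5.74 and 5.31 in the pL2 arrays (1.25 ± 0.24, adjusted p = 0.0178). All 3 rose, with the smallest standard error in Rab15. Trpm6, a magnesium channel, was at 5.23, 4.92 and 4.91 in the Lgr5_Notch2IC arrays, against 3.45, 3.91 and 4.06 in the pL2 arrays (1.22 ± 0.23, adjusted p = 0.0178). The G protein-coupled receptor gene Gpr31b was at 5.58, 5.64 and 5.70 in the Lgr5_Notch2IC arrays, against 4.95, 4.76 and 4.83 in the pL2 arrays (0.79 ± 0.17, adjusted p = 0.0379). The last of the 9, the zinc finger gene Zfp764, rose by 1.06 ± 0.23 (adjusted p = 0.0389).

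Among the 12 genes that fell, the ligand Shh changed most. Shh, the Sonic hedgehog signal that gut epithelium sends to the stroma beneath it, was at 5.42, 6.22 and 4.39 in the Lgr5_Notch2IC arrays, against 6.65, 7.72 and 7.40 in the pL2 arrays. It fell 3.77-fold (-1.91 ± 0.42, adjusted p = 0.0464), close to the threshold, and remained called in 7 of 20 alternative fits. Its difference ranged from -2.35 to -1.37 over them. The lowest value was that of Lgr5_Notch2IC array 3, high in intestinal transcripts. No other hedgehog gene was called. Gli1 and Ptch1, targets of the signal, differed by -0.12 ± 0.28 and -0.09 ± 0.22, the sister ligand Ihh by -0.19 ± 0.38 and the inhibitor Hhip by 0.10 ± 0.47, with overlapping groups in each. Smo, the signal transducer, differed by 0.36 ± 0.17 (adjusted p = 0.385). Over the 9 hedgehog genes tested, 1 was called and the median difference was 0.01, against -0.22 without Lgr5_Notch2IC array 3 and -0.10 without the arrays above the hepatocyte or enterocyte limit.

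Mgll, the lipase that breaks down monoacylglycerols including an endocannabinoid, was at 6.53, 7.19 and 6.20 in the Lgr5_Notch2IC arrays, against 7.81, 8.37 and 8.50 in the pL2 arrays (-1.58 ± 0.30, adjusted p = 0.0154). Npb, a neuropeptide precursor, was at 4.62, 4.21 and 3.49 in the Lgr5_Notch2IC arrays, against 4.66, 5.99 and 6.40 in the pL2 arrays (-1.58 ± 0.32, adjusted p = 0.0317). Npb's groups were separated only by 4.62 against 4.66, while Mgll's were apart. Both genes were lowest in Lgr5_Notch2IC array 3, high in intestinal transcripts, and highest in pL2 array 3, high in hepatocyte transcripts. Over the 20 alternative fits the difference ranged from -2.09 to -0.91 for Npb and from -1.86 to -1.23 for Mgll. They remained called in 11 and 12 of these fits. Hs3st3b1, a sulfotransferase that modifies heparan sulfate, was at 7.19, 7.44 and 6.64 in the Lgr5_Notch2IC arrays, against 8.01, 8.64 and 8.56 in the pL2 arrays (-1.31 ± 0.23, adjusted p = 0.0148). Mgmt, the repair protein that takes alkyl groups off guanine, was at 4.32, 4.54 and 4.47 in the Lgr5_Notch2IC arrays, against 5.38, 5.57 and 5.62 in the pL2 arrays (-1.08 ± 0.23, adjusted p = 0.0368). These 2 enzyme genes fell 2.48-fold and 2.12-fold.

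Smaller decreases were called in genes of membrane sorting, ubiquitin binding and kinase anchoring. Snx30, a sorting nexin, was at 4.59, 5.05 and 4.62 in the Lgr5_Notch2IC arrays, against 5.85, 5.79 and 5.75 in the pL2 arrays (-1.05 ± 0.18, adjusted p = 0.0129, the smallest of the comparison). Aagab, which binds the adaptor complexes of clathrin coats, was at 5.78, 6.16 and 6.24 in the Lgr5_Notch2IC arrays, against 6.85, 6.69 and 6.67 in the pL2 arrays (-0.68 ± 0.12, adjusted p = 0.0152). Both remained called in 15 of 20 alternative fits. Herc3, a HECT-family ubiquitin ligase, fell by 1.05 on the log2 scale (adjusted p = 0.0389), and Ubxn1, a ubiquitin-binding cofactor, by 0.60 (adjusted p = 0.0459). Akap1, which anchors protein kinase A at mitochondria, fell by 0.77 (adjusted p = 0.0317).

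Gt(ROSA)26Sor, the transcript of the Rosa26 locus into which transgenes are often placed in mice, was at 4.07, 4.70 and 4.59 in the Lgr5_Notch2IC arrays, against 5.65, 5.93 and 5.23 in the pL2 arrays. It fell by 1.15 ± 0.25 on the log2 scale (adjusted p = 0.0459), and remained called in 7 of 20 alternative fits. In the Dclk_Notch2IC arrays it was at 3.70, 3.95 and 4.97, and the difference of Lgr5_Notch2IC from them was 0.25 ± 0.25 (adjusted p = 0.783). The floxed Lgr5 lines were at 4.64 to 5.36, which overlaps both Lgr5_Notch2IC and pL2. The 12th gene that fell, the clone-named E130008D07Rik, lay outside the rule for names and was named after its values were seen; it was at 4.12, 4.42 and 5.00 in the Lgr5_Notch2IC arrays, against 5.88, 6.08 and 5.71 in the pL2 arrays.

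**Figure D2:**
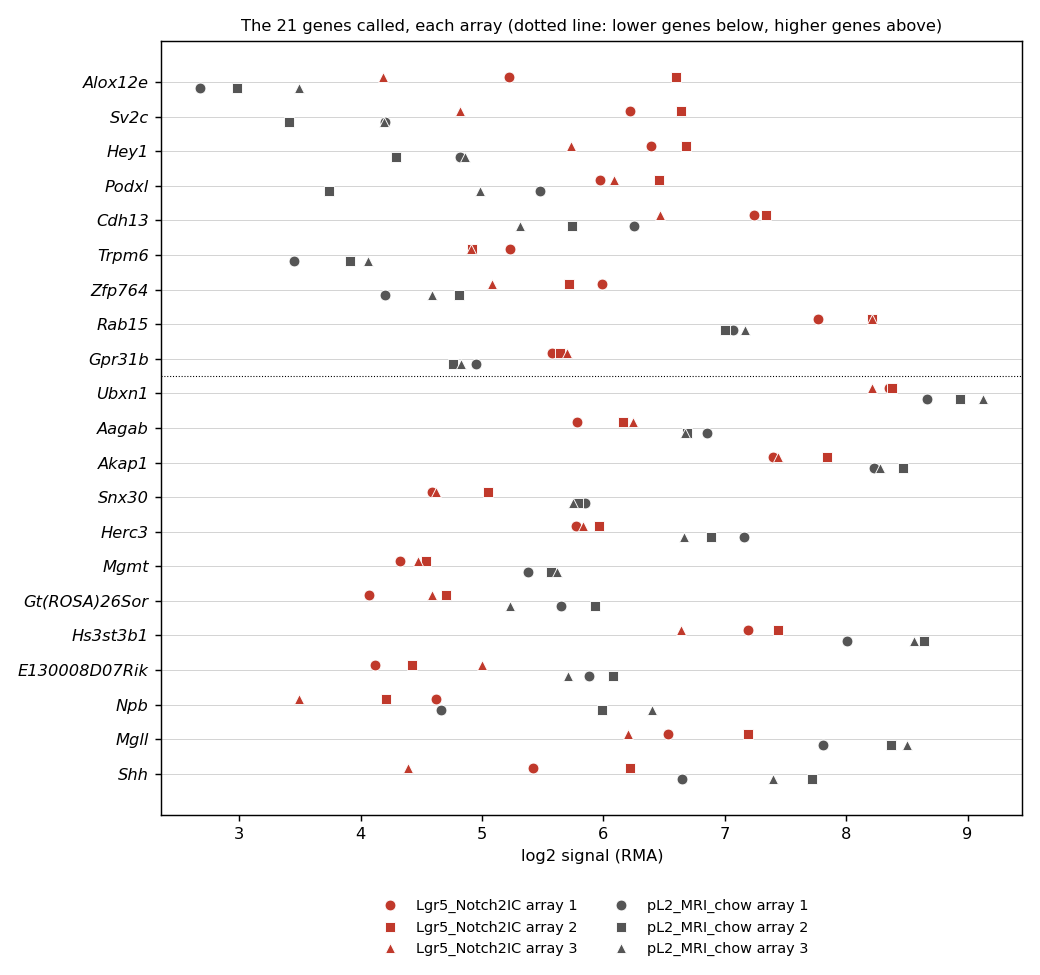
Log2 signal (horizontal axis) of the 21 called genes in each Lgr5_Notch2IC array (red) and pL2 array (grey), with the 9 higher genes above the dotted line and the 12 lower ones below it. For each gene the 3 red symbols lie to one side of the 3 grey ones, with the narrowest gap in Npb.

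The genes that define the 2 targeted cell types and the model were not called. Lgr5 was at 3.96, 5.54 and 5.48 in the Lgr5_Notch2IC arrays, against 5.66, 4.56 and 5.75 in the pL2 arrays (-0.33 ± 0.47, adjusted p = 0.83). Dclk1, the tuft cell kinase, differed by 0.29 ± 0.22 (adjusted p = 0.64). Il1b was at 7.08, 7.42 and 6.08 in the Lgr5_Notch2IC arrays, against 7.17, 7.25 and 8.88 in the pL2 arrays (-0.91 ± 0.65, adjusted p = 0.61), and whether its probes read the transgene is not known here. The 17 columnar stem cell genes had a median difference of 0.17 (0.18 without Lgr5_Notch2IC array 3), and the 25 cytokine genes of the IL-1 and NF-kB response one of -0.14, with no call in either list. The cytokine median was 0.51 without the arrays above the hepatocyte or enterocyte limit, and that of 13 neutrophil genes was 0.73, against -0.39 with all arrays, so the direction of both inflammatory lists rested on those arrays.

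No gene of the 2 gastric epithelial lists below was called. Low values of the pit list came mostly from Lgr5_Notch2IC array 3. Those of the parietal list came from arrays 1 and 3, with list means of 7.79 and 7.41. Of 11 pit cell genes, 10 were lower at an unadjusted p below 0.05, beside 7.88% of all genes, with a median difference of -0.79, but 1 was lower without Lgr5_Notch2IC array 3 (median -0.29) and none without the arrays above the hepatocyte or enterocyte limit (median -0.22). The mean of these genes was 10.80, 11.15 and 9.81 in the Lgr5_Notch2IC arrays, against 11.13, 11.56 and 11.57 in the pL2 arrays. Gkn1, the stomach lining protein gastrokine, was at 12.21, 12.41 and 10.71 in the Lgr5_Notch2IC arrays, against 12.49, 12.75 and 12.70 in the pL2 arrays (-0.87 ± 0.28, adjusted p = 0.181). The stomach calpain Capn9 was at 7.08, 7.32 and 6.08 in the Lgr5_Notch2IC arrays, against 7.84, 8.68 and 8.96 in the pL2 arrays (-1.66 ± 0.48, adjusted p = 0.147). Of 13 parietal cell genes, which serve acid secretion, 8 were lower, with a median of -0.82, but 3 without Lgr5_Notch2IC array 3 (median -0.39) and 1 without the arrays above the hepatocyte or enterocyte limit (median -0.42). Atp4a, the catalytic subunit of the proton pump, was at 10.93, 12.23 and 11.05 in the Lgr5_Notch2IC arrays, against 12.46, 12.33 and 12.21 in the pL2 arrays (-0.93 ± 0.29, adjusted p = 0.176). Its array 2 lay within the range of pL2, and the parietal list mean of that array, 8.76, was above all 3 pL2 arrays (8.65, 8.66 and 8.66). Intestinal transcripts moved with the values of array 3, and their part in these differences was not tested. Of 18 transcription factors of the foregut, 2 were higher and 4 lower at an unadjusted p below 0.05, with 9 above 0, 9 below 0 and a median of -0.04, and without Lgr5_Notch2IC array 3 the counts were 0 and 1. The one with the smallest p, Pdx1, a factor of the distal foregut, was at 4.80, 5.08 and 4.19 in the Lgr5_Notch2IC arrays, against 5.20, 5.94 and 6.47 in the pL2 arrays (-1.18 ± 0.29, adjusted p = 0.073).

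Mesothelial genes, from the outer covering of the organ, were lower in each of the 3 Lgr5_Notch2IC arrays. Their list mean was 4.50, 4.45 and 4.63 in the Lgr5_Notch2IC arrays, against 5.03, 5.82 and 5.47 in the pL2 arrays. Of 7 genes, 6 were lower at an unadjusted p below 0.05 and the median difference was -1.0, with 6 again without Lgr5_Notch2IC array 3 (-1.12) and 6 without the arrays above the hepatocyte or enterocyte limit (-1.23). Upk1b, a uroplakin of mesothelium, was at 4.49, 4.54 and 4.91 in the Lgr5_Notch2IC arrays, against 5.23, 6.78 and 6.55 in the pL2 arrays (-1.54 ± 0.49, adjusted p = 0.181). Gpm6a, a membrane glycoprotein, was at 4.79, 6.58 and 5.63 in the Lgr5_Notch2IC arrays, against 7.10, 7.54 and 7.37 in the pL2 arrays (-1.66 ± 0.45, adjusted p = 0.122). The other 5 Notch lines had group means of this list between 4.40 and 4.65, beside 4.53 in Lgr5_Notch2IC, so low values were shared by the tamoxifen-treated lines of the same title series. Smooth muscle genes had a median of -0.75 with all arrays and -1.52 without Lgr5_Notch2IC array 3.

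Vessel genes had higher means in all 3 Lgr5_Notch2IC arrays than in 2 of the 3 pL2 arrays, and so had the other Notch lines, with group means of 6.18 to 6.42, beside 6.22 in Lgr5_Notch2IC and 5.61 in pL2. Of 16 endothelial and pericyte genes, Podxl was called, 8 were higher at an unadjusted p below 0.05 and none lower, with a median difference of 0.61. The counts were 10 and 0 without Lgr5_Notch2IC array 3 and 5 and 0 without the arrays above the hepatocyte or enterocyte limit. The list mean was 5.78, 6.59 and 6.31 in the Lgr5_Notch2IC arrays, against 6.49, 5.11 and 5.23 in the pL2 arrays, so pL2 array 1 lay among the Lgr5_Notch2IC arrays. Cdh5, the cadherin of endothelial junctions, was at 7.14, 8.22 and 7.14 in the Lgr5_Notch2IC arrays, against 7.52, 5.37 and 6.39 in the pL2 arrays (1.08 ± 0.30, adjusted p = 0.133). Flt1, a receptor for vascular growth factors, differed by 1.00 ± 0.28 and Sox18, a factor of vessel cells, by 0.98 ± 0.28, with adjusted p values of 0.128 and 0.133.

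The lists of the cell cycle and of Wnt targets had members at an unadjusted p below 0.05 in one direction. Of 29 cell cycle genes, 6 were higher at an unadjusted p below 0.05 and none lower, with a median difference of 0.30 and the same counts without Lgr5_Notch2IC array 3. The group mean of the list was 6.85 in Lgr5_Notch2IC, within the 6.58 to 6.99 of the other Notch lines, against 6.57 in pL2. Mcm2, a subunit of the replicative helicase, was at 6.99, 7.43 and 6.76 in the Lgr5_Notch2IC arrays, against 6.20, 6.25 and 6.50 in the pL2 arrays (0.75 ± 0.25, adjusted p = 0.191). Mcm5 of the same complex was at 7.85, 7.96 and 7.71 in the Lgr5_Notch2IC arrays, against 7.28, 6.77 and 6.93 in the pL2 arrays (0.85 ± 0.30, adjusted p = 0.218). The groups did not overlap for either subunit. Of 12 Wnt target genes, 4 were higher and none lower, with a median of 0.26, but 3 without Lgr5_Notch2IC array 3 and 2 without the arrays above the hepatocyte or enterocyte limit. The Wnt list mean was 5.44, 5.51 and 5.91 in the Lgr5_Notch2IC arrays, against 5.59, 5.18 and 5.39 in the pL2 arrays, so the groups overlapped and array 3 was the highest. Sp5, a transcription factor induced by Wnt, was at 4.43, 4.69 and 4.55 in the Lgr5_Notch2IC arrays, against 3.60, 4.04 and 4.03 in the pL2 arrays (0.67 ± 0.21, adjusted p = 0.176). No gene of these 2 lists was called.

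Lists of the intestine owed their medians to a single array. The median of 22 enterocyte genes was 1.48 with all arrays and -0.00 without Lgr5_Notch2IC array 3, and that of 8 Paneth cell genes was 1.44 and 0.31. Mmp7, the protease that activates Paneth defensins and is also made by injured epithelium, did not share this pattern. It was at 7.09, 7.16 and 7.25 in the Lgr5_Notch2IC arrays, against 3.62, 4.53 and 4.58 in the pL2 arrays, a 7.62-fold difference (2.93 ± 0.71, adjusted p = 0.073). The squamous basal list, with means of 9.23, 8.80 and 8.77 in the Lgr5_Notch2IC arrays against 8.86, 8.77 and 8.79 in the pL2 arrays, had no call and a median of 0.20 (0.14 without Lgr5_Notch2IC array 3).

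**Figure D3:**
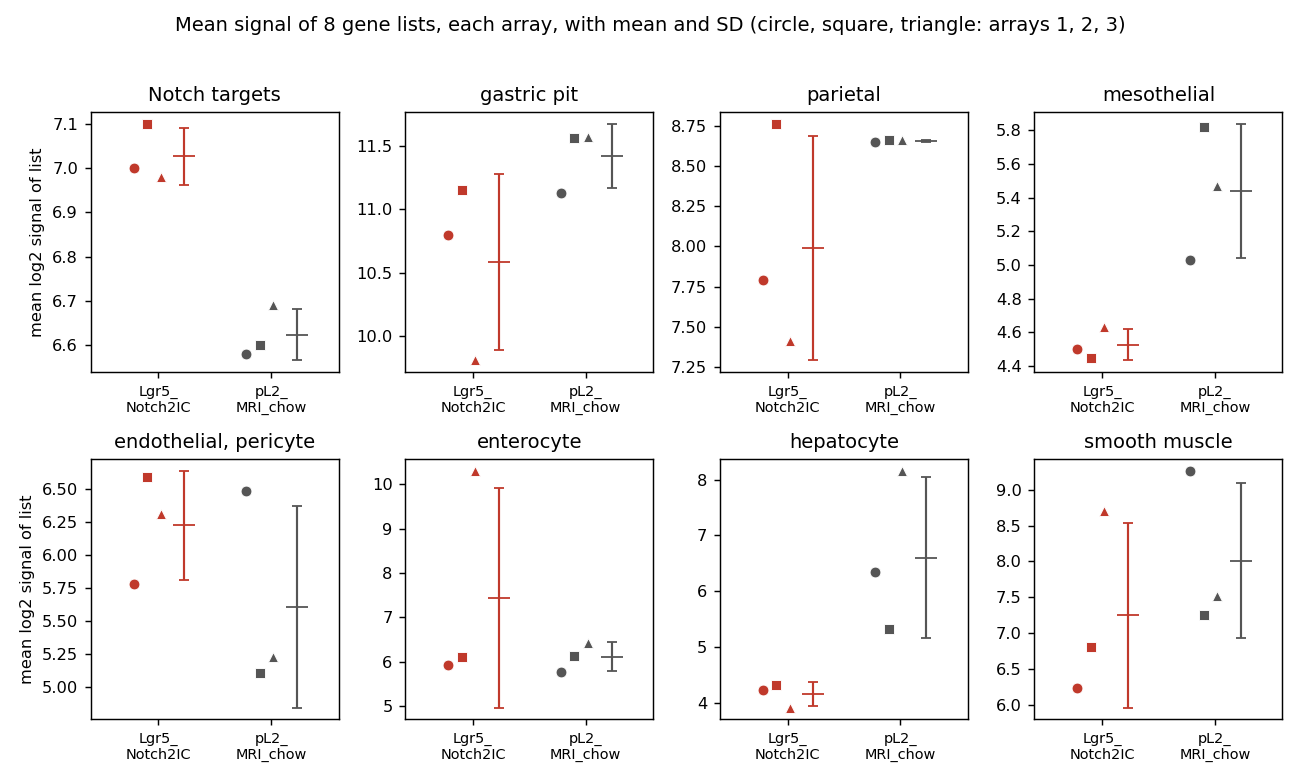
Mean log2 signal (vertical axis) of 8 gene lists in each Lgr5_Notch2IC array (red) and pL2 array (grey), with mean and SD. Notch targets lie higher and mesothelial genes lower in all 3 Lgr5_Notch2IC arrays, while the enterocyte list is high in 1 Lgr5_Notch2IC array (10.30).

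**Figure D4:**
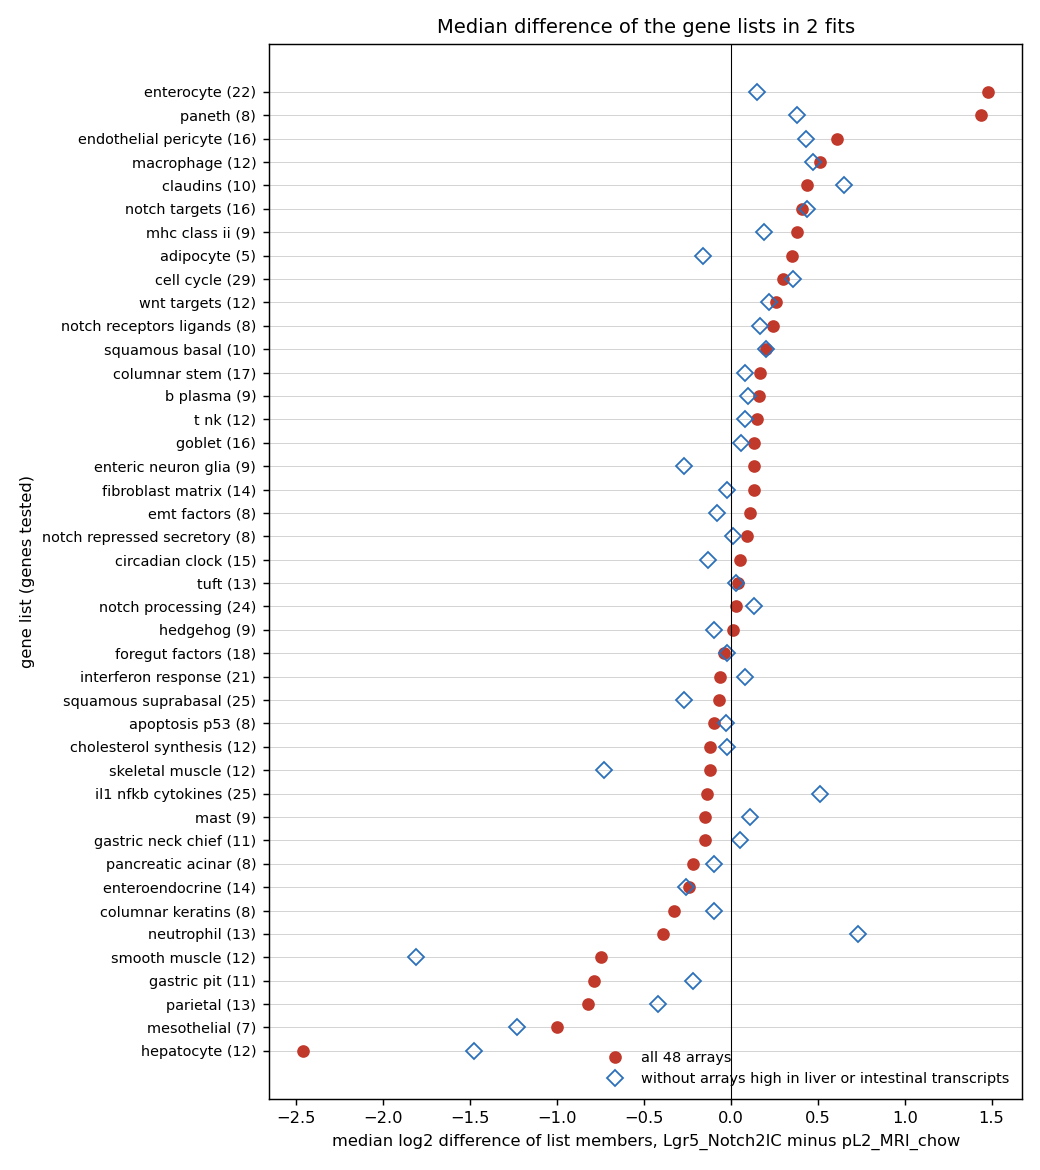
Median log2 difference of the tested members of 42 gene lists, Lgr5_Notch2IC minus pL2 (horizontal axis), with all 48 arrays (filled) and without the arrays above the hepatocyte or enterocyte limit (open). The enterocyte list moves from 1.48 to 0.15 and the gastric pit list from -0.79 to -0.22, while the Notch target list is at 0.41 and 0.44.

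The 3 Lgr5 lines share driver, title series and the use of tamoxifen, so activated Notch2 was also set against the mean of the 2 floxed Lgr5 lines. They are not fully matched. Tamoxifen was at 4, 4 and 3 months in Lgr5_Notch1fl and 4, 5 and 4 in Lgr5_Notch2fl, against 4 in each Lgr5_Notch2IC array. Lgr5_Notch1fl array 2 and Lgr5_Notch2fl array 1 carry the title suffix that no Lgr5_Notch2IC array has. Here 6 of 15242 genes were called (0.0394%), 5 higher and 1 lower, and this comparison shares its Lgr5_Notch2IC arrays with the first. Alox12e, with Lgr5_Notch2IC values as above, was at 3.01, 3.39 and 3.62 in Lgr5_Notch1fl and 3.06, 2.67 and 2.84 in Lgr5_Notch2fl (2.23 ± 0.35, adjusted p = 0.0024). Sv2c was at 3.89, 3.60 and 4.31 in Lgr5_Notch1fl and 3.83, 4.06 and 4.23 in Lgr5_Notch2fl (1.90 ± 0.35, adjusted p = 0.0192). All 3 Lgr5_Notch2IC arrays were above all 6 floxed arrays in both genes. Clca3a2, of a family of secreted proteins linked to chloride transport, was at 8.31, 8.57 and 6.58 in Lgr5_Notch2IC, 4.70, 5.21 and 6.00 in Lgr5_Notch1fl, and 4.89, 6.08 and 4.04 in Lgr5_Notch2fl (2.67 ± 0.49, adjusted p = 0.0192). The potassium channel gene Kcnh5 was at 5.56, 6.37 and 4.23 in Lgr5_Notch2IC, 3.56, 3.68 and 3.19 in Lgr5_Notch1fl, and 3.12, 2.77 and 3.26 in Lgr5_Notch2fl (2.12 ± 0.41, adjusted p = 0.0223). Kcnh5, like Alox12e, was above the array median only in arrays with activated Notch2 (5 of 6), and so passed the filter only through them. Against pL2, at 4.97, 5.32 and 5.58 for Clca3a2 and 3.30, 3.13 and 3.46 for Kcnh5, these 2 genes just missed the threshold, with differences of 2.53 ± 0.57 and 2.09 ± 0.47 and an adjusted p of 0.0528 for both. Hey1 was at 5.25, 4.87 and 5.47 in Lgr5_Notch1fl and 5.08, 5.43 and 4.57 in Lgr5_Notch2fl, below all 3 Lgr5_Notch2IC arrays, and its difference of 1.15 ± 0.29 had an adjusted p of 0.174.

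The remaining 2 called genes of this comparison followed the floxed Notch2 line. Tmod4, a tropomodulin of muscle, was at 4.02, 4.11 and 4.36 in Lgr5_Notch2IC, 4.47, 4.55 and 4.16 in Lgr5_Notch1fl, and 5.72, 5.85 and 5.88 in Lgr5_Notch2fl (-0.94, adjusted p = 0.000239). The clone-named 5830417I10Rik was at 6.07, 6.43 and 6.80 in Lgr5_Notch2IC, 5.81, 6.02 and 6.27 in Lgr5_Notch1fl, and 5.18, 4.26 and 4.30 in Lgr5_Notch2fl (1.13, adjusted p = 0.0223).

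The same activated Notch2 under the tuft cell driver gave a group whose arrays differed in Hey1, Alox12e and Kcnh5. Against Dclk_Notch2IC, Lgr5_Notch2IC had 3 called genes of 15242 (0.0197%), all lower, and no Notch target of the list was among them. None of the 21 genes called against pL2 was called here, but 20 had the same direction. Of the 21, 17 had an unadjusted p below 0.05 (limma), beside 1520 of the 15242 genes. These were 6 of the 9 called higher and 11 of the 12 called lower. The 21 were selected on the same Lgr5_Notch2IC arrays, so these counts are a description. Hey1 was at 4.62, 5.88 and 7.0 in the Dclk_Notch2IC arrays, and the difference of Lgr5_Notch2IC from them was 0.43 ± 0.33 (95% interval -0.24 to 1.10, adjusted p = 0.698). Alox12e was at 2.63, 3.90 and 5.21 in the Dclk_Notch2IC arrays (difference 1.42 ± 0.41, adjusted p = 0.324) and Kcnh5 at 2.91, 4.25 and 6.70 (0.77 ± 0.47, adjusted p = 0.594). Array 1 of Dclk_Notch2IC was within or below the range of pL2 and array 3 was above the lowest Lgr5_Notch2IC array in all 3 genes. Rpl3, a protein of the large ribosomal subunit, was at 7.83, 8.63 and 7.58 in Lgr5_Notch2IC, against 9.90, 10.22 and 10.00 in Dclk_Notch2IC (-2.03 ± 0.30, adjusted p = 0.00117). Ribosomal genes have near-identical copies in the genome, so which locus this signal stems from is uncertain, and with the mean of all its entries it was not called. Zfp672, a zinc finger gene, was at 5.56, 5.52 and 5.64 in Lgr5_Notch2IC, against 6.29, 6.39 and 6.07 in Dclk_Notch2IC (-0.67 ± 0.12, adjusted p = 0.0282). Fam204a was at 5.46, 5.68 and 5.58 in Lgr5_Notch2IC, against 6.44, 6.65 and 6.24 in Dclk_Notch2IC (-0.88 ± 0.16, adjusted p = 0.0282).

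Activated Notch2 under Dclk was also set against the mean of the 2 floxed Dclk lines, a comparison chosen after the data were seen that shares no array with the first. It had 1 called gene, Rpl3 (0.00656%, 1.84 ± 0.26, adjusted p = 0.000442). Hey1 differed by 0.98 ± 0.29 there (unadjusted p = 0.00149, adjusted p = 0.616), Alox12e by 1.23 ± 0.35 (adjusted p = 0.616) and Kcnh5 by 1.41 ± 0.41 (adjusted p = 0.616). Over all genes, 3.28% were higher and 3.63% lower here at an unadjusted p below 0.05. Of the 9 genes called higher in Lgr5_Notch2IC, 6 were above 0 in this comparison and 3 of them were at an unadjusted p below 0.05, among them Alox12e, which passed the filter in part through a Dclk_Notch2IC array. Of the 12 called lower, 3 were below 0 and 1 at an unadjusted p below 0.05.

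Over the series, 42 arrays carried no activated Notch2. Beside pL2 and the floxed lines they include wild type, FXR, pl2_FXR and pl2_IL8 mice, and mice from the Freising facility on chow or high fat diet. Alox12e ranged from 2.35 to 3.81 in them, with a median of 2.91, below the lowest Lgr5_Notch2IC array at 4.18. Kcnh5 ranged from 2.74 to 3.68, with a median of 3.22, below 4.23 in the lowest Lgr5_Notch2IC array. Both genes were above the array median in none of the 42, so the filter kept them only for arrays in which they are high, and their separation from the 42 is a description with no weight as a test. Hey1 ranged from 4.29 to 6.12, with a median of 5.45, and so reached above Lgr5_Notch2IC array 3, at 5.73. All 3 pL2 arrays were below that median, and the value of 4.29 was that of pL2 array 2. For Alox12e and Kcnh5, which were singled out after their values were seen, the 5 highest of the 48 arrays were the 3 Lgr5_Notch2IC arrays and Dclk_Notch2IC arrays 2 and 3.

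**Figure D5:**
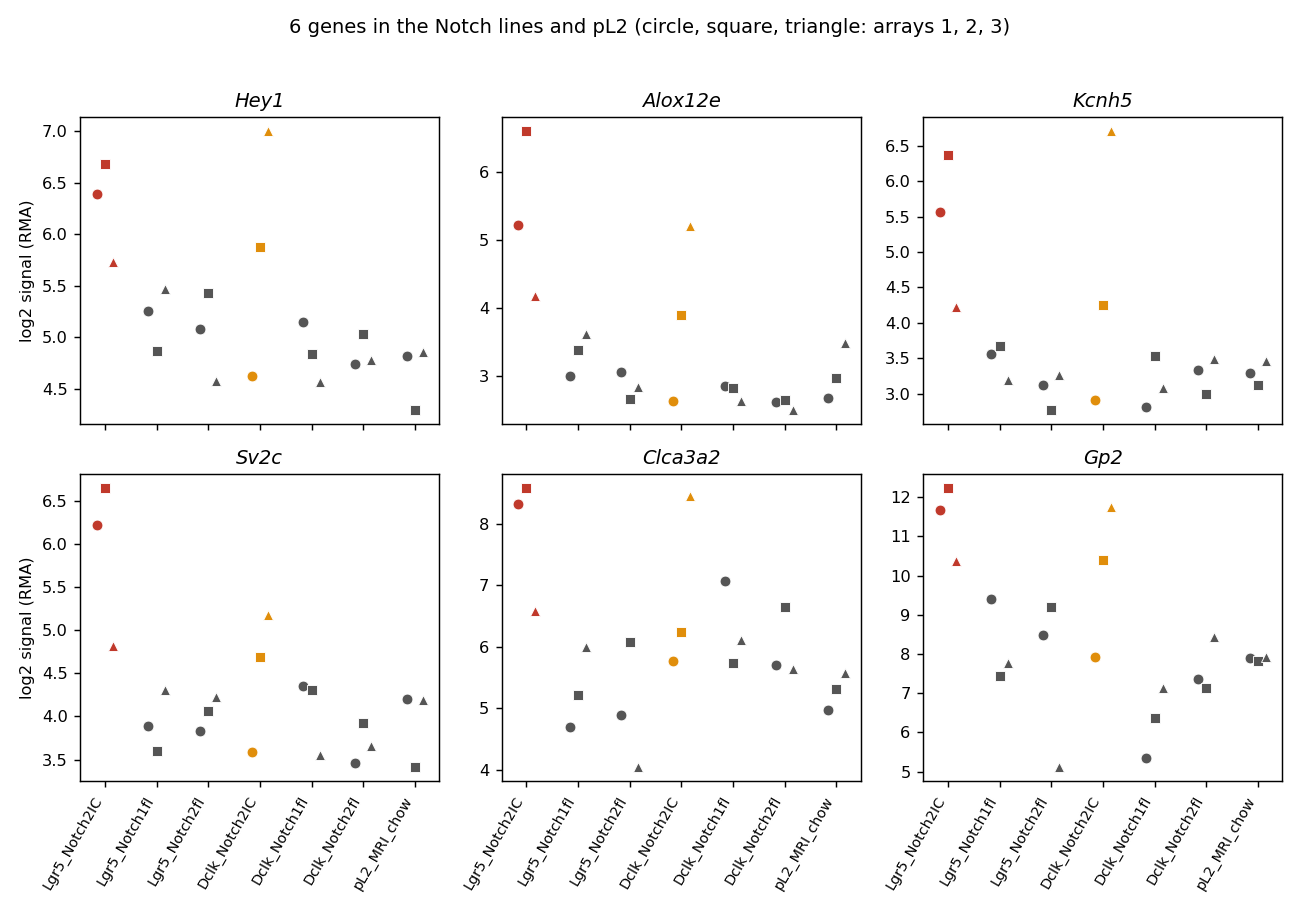
Log2 signal (vertical axis) of 6 genes in each array of Lgr5_Notch2IC (red), Dclk_Notch2IC (orange), the 4 floxed lines and pL2 (grey). Alox12e, Kcnh5 and Gp2 are high in the 3 Lgr5_Notch2IC arrays and in arrays 2 and 3 of Dclk_Notch2IC, and lower in its array 1 (2.63, 2.91 and 7.91); Gp2 was chosen after its values were seen.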

How the data were processed

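Total RNA of 48 tissue samples was labelled with biotin and hybridised to Affymetrix arrays, per the labels' protocols. The deposited values are log2 signals per probe set, made by RMA in Affymetrix Expression Console, per the submitters' processing notes; version and genome build are not given in the sources used here. RMA shares quantiles across arrays, so array medians lay between 4.03 and 4.27. Of 34390 entries, 23521 had 1 gene symbol in the platform annotation and were used, 1814 had several and 9055 none. The entry with the highest mean over all arrays stood for each of 22180 symbols, and 15242 were tested, those whose signal exceeded the median of its array in 3 or more arrays.

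Means of 16 groups were fitted with limma 3.58.1 in R 4.3.3 (32 residual degrees of freedom, eBayes, two-sided, Benjamini-Hochberg). The code was tested on simulated data. Each group has 3 arrays, which limits the precision. No 2 arrays were identical. Alternatives changed the filter, scaling, covariates and arrays. The members and 43 gene lists were chosen with earlier results of these data known, and no set test was run. Members of a list can vary together over the same arrays. Counts of list members are therefore descriptions and carry no weight as a test. Recounting the lists with arrays left out, and the comparison within the Dclk lines, were added after the data were seen. Genes could be named by a rule that took the Notch receptors, Hes1, Lgr5, Dclk1, Il1b and Xist, the 12 largest called increases and decreases against pL2 without clone-named or predicted genes, called list members and the 4 with the smallest p per list, all Notch list members, and the 6 largest called changes per direction in the other comparisons. Examples of these are given, and others are said to be chosen after their values were seen.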

Additional observations from a re-analysis of the deposited data

Results flagged for a closer look

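For 3 genes Lgr5_Notch2IC differed from Dclk_Notch2IC, the line with activated Notch2 under the other driver. Since pL2 would be the same baseline for both, this is the contrast of the 2 groups given above and no separate test. The groups also differed in the age at tamoxifen, 4 months in each Lgr5_Notch2IC array against 6, 6 and 5 in Dclk_Notch2IC, and in age, 10, 11 and 10 against 12, 12 and 11 months; with age as a covariate 1 gene was called. The limma difference, Lgr5_Notch2IC minus Dclk_Notch2IC, was -2.03 for Rpl3, -0.88 for Fam204a and -0.67 for Zfp672 on the log2 scale, with adjusted p values of 0.00117, 0.0282 and 0.0282. In each of the 3 genes all Lgr5_Notch2IC arrays were below all Dclk_Notch2IC arrays. Rpl3 was at 7.62, 8.01 and 8.26 in the pL2 arrays, within the range of Lgr5_Notch2IC. Zfp672 was at 6.20, 6.08 and 6.01 in the pL2 arrays, and Fam204a at 5.81, 5.80 and 5.70, both above the 3 Lgr5_Notch2IC arrays.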

How the results depend on the processing

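No paired analysis was possible because the replicate numbers follow the order of the samples and pair nothing. Against pL2, 21 genes were called; the count was 9 with the MRI arrays alone, 9 with a sex-linked score, 3 with the title suffix, 33 with the enterocyte mean and 44 with squamous basal and skeletal muscle means as covariates. It was 11 without the 10 arrays above the hepatocyte or enterocyte limit (called high arrays here), and 1110 with array quality weights, whose estimation did not converge. It was 0 with age as a covariate (1500 at an unadjusted p below 0.05 by limma) and 0 with the compared groups alone (758 so). Leaving out 1 array at a time gave 0 to 487. Without pL2 array 2 it was 0 (1175 at an unadjusted p below 0.05), without pL2 array 3 it was 2, without pL2 array 1 it was 113, and without Lgr5_Notch2IC arrays 1, 2 and 3 it was 7, 487 and 17. All 21 genes kept their direction in each fit that tested them, and 18 of them remained called under cyclic loess and 6 without the high arrays. Against the floxed Lgr5 lines, 6 genes were called; the count was 2 with the MRI arrays alone, 0 with the compared groups alone (467 at an unadjusted p below 0.05), 11 under the stricter filter, 32 without the high arrays and 3 to 99 with 1 array left out, with the lowest without Lgr5_Notch2IC array 1 and the highest without array 2. Against Dclk_Notch2IC, 3 were called; the count was 1 with age, 1 with the enterocyte mean, 1 under cyclic loess, 6 with array weights, 0 with the mean of all entries, 0 with the compared groups alone (839 at an unadjusted p below 0.05) and 1 to 219 with 1 array left out, the highest without Lgr5_Notch2IC array 2. For Dclk_Notch2IC against the floxed Dclk lines, 1 was called; the count was 6 with array weights, 0 with the mean of all entries, 2 without the high arrays and 1 to 7 with 1 array left out. The cause of these shifts was not tested. Other alternatives left the counts within 1.5 times. Lgr5, never called, turned to 0.18 with the title suffix and 0.19 without Lgr5_Notch2IC array 1 (-0.71 without pL2 array 2), and Il1b, never called, to 0.04 without the high arrays. No detection calls were used here, and signals near the array median may be close to background, where differences are understated.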

Other observations

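Further epithelial genes stood out for their size and were chosen after their values were seen. Gp2, a receptor for bacteria on specialised gut epithelium and a product of pancreatic acini, was at 11.68, 12.22 and 10.36 in the Lgr5_Notch2IC arrays, against 7.90, 7.83 and 7.92 in the pL2 arrays (3.54 ± 0.84, 11.6-fold, adjusted p = 0.073). Pancreatic acinar genes as a list did not move with it, with means of 5.26, 5.64 and 4.97 in the Lgr5_Notch2IC arrays against 5.55, 5.51 and 5.66 in the pL2 arrays. Alox15, a lipoxygenase, was at 8.53, 10.26 and 6.88 in the Lgr5_Notch2IC arrays, against 4.78, 6.09 and 6.31 in the pL2 arrays (2.83 ± 0.69, adjusted p = 0.073). Gabrp, a subunit of a GABA receptor found in epithelia, was at 10.03, 10.58 and 8.63 in the Lgr5_Notch2IC arrays, against 6.14, 7.68 and 8.17 in the pL2 arrays (2.42 ± 0.69, adjusted p = 0.139). None of the 3 was called, and none overlapped between the groups.

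In Dclk_Notch2IC, Gp2 was at 7.91, 10.40 and 11.75, Alox15 at 5.41, 6.50 and 8.76, and Gabrp at 7.05, 9.03 and 10.53. In the 42 arrays without activated Notch2, the highest value was 9.40 for Gp2, 7.38 for Alox15 and 8.51 for Gabrp. Gp2 and Gabrp had their 5 highest values of the 48 arrays in the 3 Lgr5_Notch2IC arrays and Dclk_Notch2IC arrays 2 and 3.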
